A study of Rattus norvegicus with 5 samples.

Results

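Ppara, the gene of the fatty acid receptor PPAR-alpha, was described in rat liver together with 8 genes tied to it in fasting: its coactivator gene Ppargc1a, and Pdk4, Angptl4, Plin2, Fgf21, Creb3l3, Txnip and Ucp2. The 9 genes were chosen by name through the array annotation, with their strain differences on these arrays already known, so their strain differences are given as a description and are not tested. All 9 were on the array, each with 1 probe set, among 7589 genes named by 1 symbol and 8797 probe sets in all. PD is the polydactylous rat, the progenitor strain. PD.SHR4, called PD.SHR4a in the series text, is a congenic strain in which part of chromosome 4 comes from SHR, the spontaneously hypertensive rat, and the rest is PD, and the series title calls such strains Cd36-deficient. Both strains were represented by liver of 4-month-old males on standard chow, and the labels used here give no fasting state or hour of sampling. Labelled cDNA of 8 rats was pooled for each strain and hybridised to 3 PD arrays and 2 PD.SHR4 arrays, so the spread between arrays may be technical and does not show the spread between rats.

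PPAR-alpha is a nuclear receptor that binds fatty acids and, as a heterodimer with a retinoid X receptor, switches on genes of fatty acid oxidation in the liver. It is most active in fasting, when fatty acids arrive from adipose tissue. PGC-1alpha, the product of Ppargc1a, is a coactivator that helps the receptor and other factors start transcription. Pdk4, Angptl4, Plin2 and Fgf21 are textbook targets of the receptor.

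On a log2 scale of expression (RMA values, a model-based summary of the probes of a gene), the array medians ran from 5.21 to 5.38 and the upper quartiles from 7.38 to 7.65. Over all probe sets, the correlation between arrays was r = 0.988 to 0.994 within a strain and r = 0.986 to 0.987 across strains. The probe set of Cd36, the fatty acid translocase gene, also covers the neighbouring Cd36l1 and was 9.11-fold lower in PD.SHR4. Across the table, 82 of 8797 probe sets differed between the strains at an adjusted p under 0.05 (limma), and 1211 had an unadjusted p under 0.05. Markers of hepatocytes were bright in both strains, with a mean level of 12.44 to 12.53 over 8 genes on the PD arrays and 12.53 to 12.54 on the PD.SHR4 arrays. In bulk tissue, fewer cells of a type and less RNA per cell cannot be told apart.

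Ppara was higher in PD.SHR4, while Pdk4, Angptl4 and Plin2 were lower. Of the 7 genes besides the receptor and its coactivator, 2 had the sign of Ppara and 5 the opposite sign, among them Fgf21 and Ucp2, whose 95% intervals included 0. In all, 3 of the 9 genes were higher in PD.SHR4 and 6 lower. PD and PD.SHR4 values were fully separate for 7 of the 9 genes, 3 higher and 4 lower, where 31.9% of all probe sets had no overlap, 14.8% higher and 17.1% lower. Of the 9 genes, 2 passed the adjusted threshold, Pdk4 and Angptl4, against 0.932% of all probe sets (0.659% lower and 0.273% higher). Nothing is read from these counts, because the genes were chosen with the same differences known. The call of Pdk4 was lost without PD array 1 or PD array 3, and that of Angptl4 when any 1 of the 3 PD arrays was left out. Leaving out a PD.SHR4 array leaves 1 in that strain, so a call lost there says nothing particular about its gene.

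**Figure D1:**
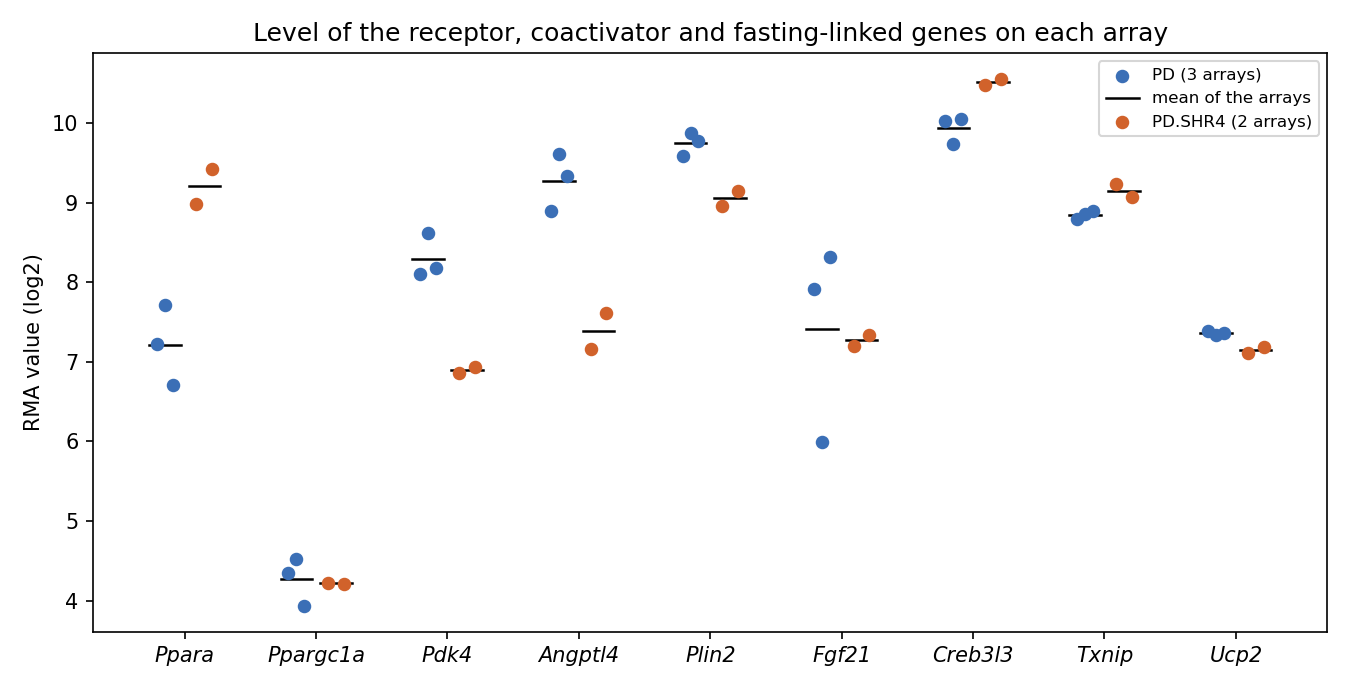
Level of each of the 9 genes on every array (vertical axis, RMA value on the log2 scale), with 3 PD arrays in blue, 2 PD.SHR4 arrays in orange and a black bar at the mean of each strain. Ppara was higher on both PD.SHR4 arrays, Pdk4, Angptl4 and Plin2 were lower on both, and Fgf21 ran from 5.99 to 8.32 within PD.

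The promoter windows of the genes whose arrays lay farthest apart are shown first, so that the levels can be read beside the sequence around each start of transcription. They come from RefSeq (assembly GRCr8), cover 250 bases before and 50 bases after the annotated start, and are written along the strand of the gene. Ppara lies at chr7:118712357-118712656 (plus strand), Pdk4 at chr4:34568280-34568579 (minus strand) and Angptl4 at chr7:15258632-15258931 (minus strand). Plin2 lies at chr5:106228969-106229268 (minus strand) and Creb3l3 at chr7:9273070-9273369 (plus strand). Capitals mark the motifs described after the sequences.
Ppara: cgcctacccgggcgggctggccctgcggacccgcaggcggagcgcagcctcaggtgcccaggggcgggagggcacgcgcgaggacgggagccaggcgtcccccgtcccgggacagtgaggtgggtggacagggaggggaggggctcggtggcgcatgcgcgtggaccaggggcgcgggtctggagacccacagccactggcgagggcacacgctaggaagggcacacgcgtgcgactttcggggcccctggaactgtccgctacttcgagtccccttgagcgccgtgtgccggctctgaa
Pdk4: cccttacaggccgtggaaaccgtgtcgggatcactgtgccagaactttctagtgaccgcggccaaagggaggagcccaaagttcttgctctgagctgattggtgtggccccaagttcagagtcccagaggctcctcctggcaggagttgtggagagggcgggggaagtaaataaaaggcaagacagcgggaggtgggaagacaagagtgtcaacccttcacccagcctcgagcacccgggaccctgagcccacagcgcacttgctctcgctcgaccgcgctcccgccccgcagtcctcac
Angptl4: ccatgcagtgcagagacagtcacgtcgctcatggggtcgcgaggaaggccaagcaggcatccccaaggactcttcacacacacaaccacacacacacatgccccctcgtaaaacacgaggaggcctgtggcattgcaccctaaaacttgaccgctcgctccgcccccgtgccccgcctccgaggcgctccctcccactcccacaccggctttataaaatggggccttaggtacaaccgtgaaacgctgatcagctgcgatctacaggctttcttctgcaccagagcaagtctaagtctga
Plin2: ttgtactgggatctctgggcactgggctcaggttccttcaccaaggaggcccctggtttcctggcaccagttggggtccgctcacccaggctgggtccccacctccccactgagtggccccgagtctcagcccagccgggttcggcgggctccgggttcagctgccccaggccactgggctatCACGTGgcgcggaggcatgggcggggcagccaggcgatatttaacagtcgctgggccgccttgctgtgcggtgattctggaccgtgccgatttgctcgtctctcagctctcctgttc
Creb3l3: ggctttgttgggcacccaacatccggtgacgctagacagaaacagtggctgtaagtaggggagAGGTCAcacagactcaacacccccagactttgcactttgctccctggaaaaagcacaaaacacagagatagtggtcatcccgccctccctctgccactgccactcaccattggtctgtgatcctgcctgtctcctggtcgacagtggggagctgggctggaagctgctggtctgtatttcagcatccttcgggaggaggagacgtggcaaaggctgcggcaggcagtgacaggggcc

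Windows were present for 8 of the 9 genes, with 2 for Plin2, of which the more upstream is printed, and Txnip was not among them. The search covered 5 motifs on both strands. The nuclear receptor hexamer AGGTCA, the core of the sites that PPAR-alpha and its relatives bind, was found in the window of Creb3l3, from -187 to -182 relative to the start, and in 16.2% of 33469 rat windows. The E-box CACGTG, read by clock and carbohydrate-response factors, was found in Plin2 from -67 to -62 and in Fgf21 from -54 to -49, and in 6.42% of all windows. The cyclic AMP response element TGACGTCA, through which glucagon signalling acts, was found in Ppargc1a from -181 to -174 and in 1.83% of all windows. The direct repeat AGGTCANAGGTCA, the full PPAR element, which holds the hexamer on each side of 1 base, was found in no window of these genes and in 0.0538% of all windows. The forkhead site GTAAACA was likewise not found in them and was in 3.78% of all windows. The windows of Ppara, Pdk4, Angptl4 and Ucp2 held none of the 5 motifs, which says only that these letters are not in these windows. Guanine and cytosine made up 73.7% of the Ppara window, 61.3% of that of Pdk4 and 58.3% of that of Angptl4, with a median of 51.7% over all windows.

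Ppara measured 7.23, 7.71 and 6.70 on the 3 PD arrays and 8.98 and 9.42 on the 2 PD.SHR4 arrays. Both congenic arrays lay above every PD array, with 1.27 log2 units between the highest PD value and the lowest PD.SHR4 value. The log2 difference was 1.99 ± 0.31 (SE), a 3.97-fold higher level, with a 95% interval of the fit from 1.22 to 2.76. It did not pass the adjusted threshold, and leaving out single arrays gave 1.73 to 2.24. By its absolute size the difference was number 34 of 8797 probe sets. The PD arrays themselves were spread over 1.01 log2 units for Ppara, a wider range than in 94.1% of probe sets.

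Ppargc1a, the coactivator gene, measured 4.35, 4.52 and 3.94 in PD and 4.22 and 4.21 in PD.SHR4. It lay below the median of every array, and both congenic values lay within the PD range. The log2 difference was -0.05 ± 0.19 (SE), with a 95% interval from -0.53 to 0.42. Leaving out single arrays gave -0.22 to 0.07, so the coactivator gene had no settled sign.

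Pdk4 encodes a kinase that inactivates the pyruvate dehydrogenase complex and so spares glucose when fat is burned. It measured 8.10, 8.61 and 8.18 in PD and 6.86 and 6.93 in PD.SHR4. The strains were 1.16 log2 units apart at their closest arrays, more than the 0.51 units that separated the PD arrays from each other. PD.SHR4 minus PD came to a log2 difference of -1.40 ± 0.18 (SE), a 2.64-fold lower level, and -1.50 to -1.24 when single arrays were left out.

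Angptl4 encodes a secreted inhibitor of lipoprotein lipase. It measured 8.89, 9.61 and 9.33 in PD and 7.16 and 7.61 in PD.SHR4, with 1.28 log2 units between the closest arrays of the strains. Between strains, the log2 difference was -1.89 ± 0.25 (SE), a 3.71-fold lower level, and -2.12 to -1.67 when single arrays were left out. Among the 9 genes it was the one with the lowest log2 difference.

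Plin2 encodes a coat protein of lipid droplets, the stores of triglyceride in liver cells. It measured 9.59, 9.87 and 9.77 in PD and 8.96 and 9.15 in PD.SHR4, above the upper quartile of every array. The closest arrays of the strains were 0.44 log2 units apart, and the log2 difference was -0.69 ± 0.14 (SE), 1.62-fold lower. It did not pass the adjusted threshold. Plin2, Angptl4 and Pdk4 were thus all lower on both congenic arrays than on any PD array, and Ppara was higher on both.

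Fgf21, a hormone secreted by the fasting liver, gave the least precise difference of the 9 genes. It measured 7.91, 5.99 and 8.32 in PD and 7.20 and 7.34 in PD.SHR4. The congenic arrays lay between the low PD array 2 and the other 2 PD arrays. Its log2 difference was -0.14 ± 0.67 (SE), with a 95% interval from -1.80 to 1.52. Without PD array 2 it was -0.85, without PD array 1 it was 0.11 and without PD array 3 it was 0.32, so its sign and size rested on which PD arrays were used.

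Creb3l3 encodes a liver-enriched membrane-bound transcription factor that is cleaved on fasting and, in mice, acts with PPAR-alpha on Fgf21. It measured 10.03, 9.73 and 10.05 in PD and 10.48 and 10.55 in PD.SHR4. Both congenic arrays were above every PD array, with 0.43 log2 units between the closest. The log2 difference was 0.58 ± 0.14 (SE), 1.49-fold higher, and did not pass. Creb3l3 was thus higher together with Ppara, while Fgf21 showed no settled direction.

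Txnip encodes a thioredoxin-binding protein that limits glucose uptake and is induced by glucose. It measured 8.79, 8.85 and 8.90 in PD and 9.24 and 9.06 in PD.SHR4. The groups did not overlap, but the closest arrays were only 0.17 log2 units apart. The log2 difference was 0.30 ± 0.12 (SE), 1.23-fold higher, and 0.22 to 0.39 when single arrays were left out.

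Ucp2 encodes a carrier of the inner mitochondrial membrane that in liver is strong in Kupffer cells, the resident macrophages. It measured 7.39, 7.33 and 7.36 in PD and 7.11 and 7.18 in PD.SHR4, without overlap. The log2 difference was -0.22 ± 0.11 (SE), 1.16-fold lower, and the 95% interval, -0.49 to 0.05, included 0. Most macrophage and Kupffer cell markers were lower too: 8 of 9 had values below 0, and their median log2 difference was -0.49. Without overlap 7 were lower, as were 17.1% of all probe sets. Clec4f, counted among the 8, measured only -0.08 ± 0.13 (SE) with overlapping arrays, and Lyz2 was higher at 0.16 ± 0.12. The mean level of the 9 markers was 8.74 to 8.89 on the PD arrays and 8.39 to 8.40 on the PD.SHR4 arrays. None of the 9 passed the adjusted threshold and 7 had an unadjusted p under 0.05 (limma), and their part in the Ucp2 value was not tested. Adipose tissue and muscle express Pdk4, Plin2 and Angptl4 strongly, so their markers are given too. Adipocyte markers had a mean level of 3.68 to 3.86 over 6 genes in PD and 3.76 to 3.90 in PD.SHR4, and muscle markers 3.70 to 3.86 over 5 genes in PD and 3.89 to 3.90 in PD.SHR4. The median log2 differences of these sets were 0.02 and 0.03.

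The genes differed widely in how steady they were among the 3 PD arrays, a measure that does not involve the congenic strain. The range over the PD arrays was 0.06 log2 units for Ucp2 and 0.11 for Txnip, below the median of 0.35 for all probe sets. It was 0.28 for Plin2, 0.32 for Creb3l3, 0.51 for Pdk4, 0.59 for Ppargc1a, 0.72 for Angptl4, 1.01 for Ppara and 2.33 for Fgf21. Fgf21 was number 30 of 8797 probe sets by this range, wider than 99.7% of them. Within PD, array 2 was the highest array for 5 of the 9 genes, namely Ppara, Ppargc1a, Pdk4, Angptl4 and Plin2, and the lowest for Fgf21, Creb3l3 and Ucp2. Array 2 was also the highest PD array for 48.2% of all probe sets and had the highest median. Among PD arrays, Ppara and Pdk4, Angptl4 and Plin2 were thus all highest on array 2, whereas between strains Ppara differed in the opposite direction from these genes.

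**Figure D2:**
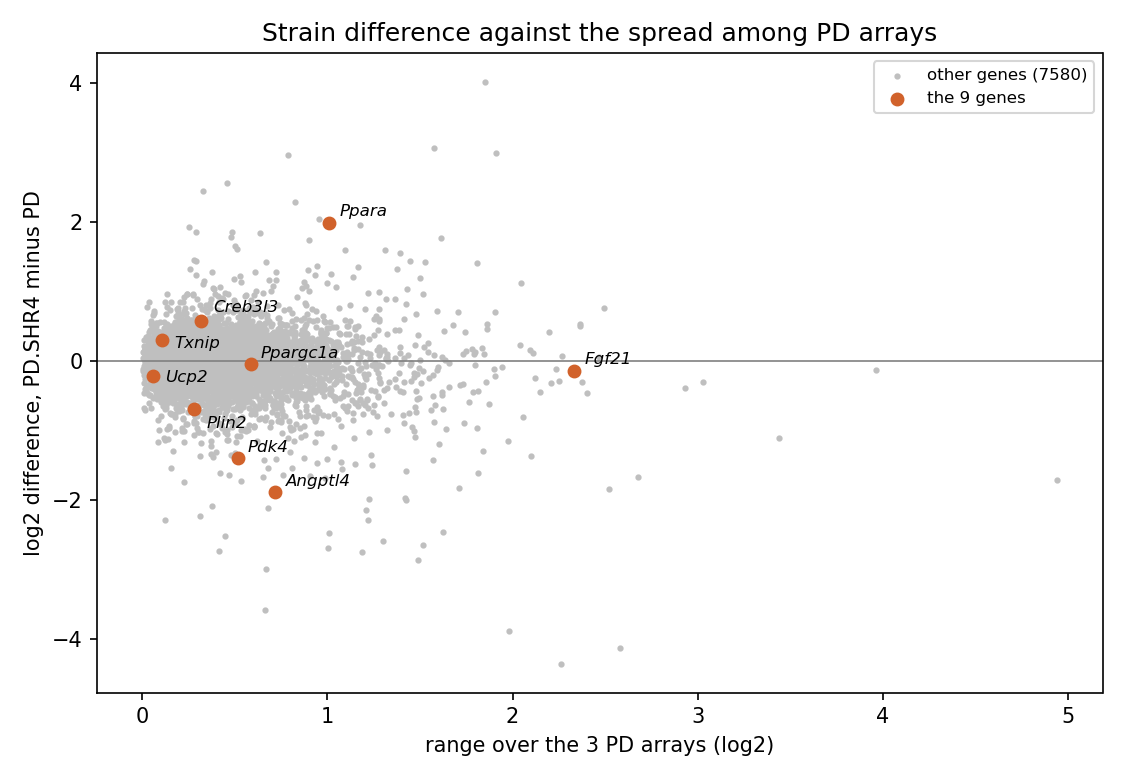
Log2 difference between strains, PD.SHR4 minus PD (vertical axis), against the range over the 3 PD arrays in log2 units (horizontal axis), for 7580 other genes in grey and the 9 genes in orange. Ppara, Pdk4 and Angptl4 lie far from 0 with ranges of 1.01, 0.51 and 0.72, and Fgf21 lies near 0 with a range of 2.33.

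The genes whose profiles were nearest to those of Ppara, Pdk4 and Angptl4 were found after each gene was set to 0 at its PD mean. Likeness was the root mean square difference over 5 arrays. Nearest to Ppara were Hspb1, a small heat shock protein gene (0.15 log2 units), Dhrs7l1 (0.21) and Cyp3a2, a cytochrome P450 gene of steroid and drug metabolism (0.22). Nearest to Pdk4 were Plppr1 (0.17), Cyp51, the lanosterol demethylase of cholesterol synthesis (0.18), and Ripk3, a kinase of necroptosis (0.20). Nearest to Angptl4 were Aldh1b1, a mitochondrial aldehyde dehydrogenase (0.28), the interferon-induced Oasl2 (0.29) and Dhcr7, the last enzyme of cholesterol synthesis (0.32). With 5 arrays in 2 groups, such likeness rests mostly on the strain difference.

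The partners of the receptor were compared next, in lists put together, like the 9 genes, with earlier results known. None of the 5 measured receptors and partners besides Ppara passed the threshold, and 1 had an unadjusted p under 0.05 (limma, as for the counts that follow). Of these, 3 had values above 0 and 2 below, and their median log2 difference was 0.17, against 0.0030 for all genes. Rxra, the main partner of PPAR-alpha in liver, measured 0.24 ± 0.11 (SE), and Ppard, the gene of the sister receptor PPAR-delta, measured -0.24 ± 0.12. Rxrg, a retinoid X receptor gene, measured -0.76 ± 0.17. Of 8 measured coregulators besides Ppargc1a none passed and 1 had an unadjusted p under 0.05, with a median of 0.08. Among them Ppargc1b, a relative of Ppargc1a, measured 0.19 ± 0.12 and the coactivator gene Ncoa2 0.22 ± 0.11. Lpin1, whose product is a phosphatidate phosphatase and, in mouse liver, a partner of PGC-1alpha, measured -1.10 ± 0.25.

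Genes of fatty acid oxidation, known targets of PPAR-alpha, mostly had the sign of Ppara. Of 22 measured mitochondrial and ketogenic targets, 21 had values above 0 and 17 were higher on both PD.SHR4 arrays than on any PD array (14.8% of all probe sets were), but 0 passed the adjusted threshold (limma) and 11 had an unadjusted p under 0.05. Their median log2 difference was 0.32, while 50.6% of all genes had values above 0. Without PD array 1, 1 of them rose. Cpt1a, the gate for long-chain fatty acids into mitochondria, stood at 1.37 ± 0.28 (SE; adjusted p = 0.103), Hadhb, a subunit of the trifunctional protein, 0.85 ± 0.12 (adjusted p = 0.0543), and the thiolase gene Acaa2 0.72 ± 0.12 (adjusted p = 0.0724). Of 16 measured peroxisomal, microsomal and binding targets (30 were listed), 11 had values above 0 and 9 were higher without overlap (again against 14.8%). Among the 16, 1 rose and 15 did not pass, with a median of 0.38. The gene that rose was Abcd2, a peroxisomal carrier of very long-chain acyl-CoA, from 2.38, 2.42 and 2.63 in PD to 4.38 and 4.41 in PD.SHR4. The strains differed by 1.92 ± 0.13 log2 units (SE; adjusted p = 0.00755, limma). Its PD values lay below the lower quartile of the arrays (2.84 to 2.93), where no detection call tells a level from background, so the size of the difference is uncertain. The call held when any 1 PD array was left out and was lost in a fit without variance shrinkage. Its log2 difference ran from 1.81 to 2.00 over 12 alternatives. The peroxisomal enzyme gene Ehhadh measured 1.17 ± 0.18 (adjusted p = 0.0606), Crot, the carnitine octanoyltransferase gene, 0.82 ± 0.19 and Slc27a2, an acyl-CoA synthetase gene, 0.43 ± 0.12. Crot lies beside Cd36 on chromosome 4, and the part of that position in its value was not tested. In these lists most oxidation genes had the sign of the receptor gene, and Pdk4, Angptl4 and Plin2 did not. The lists were put together with earlier results known, so the counts are a description only.

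**Figure D3:**
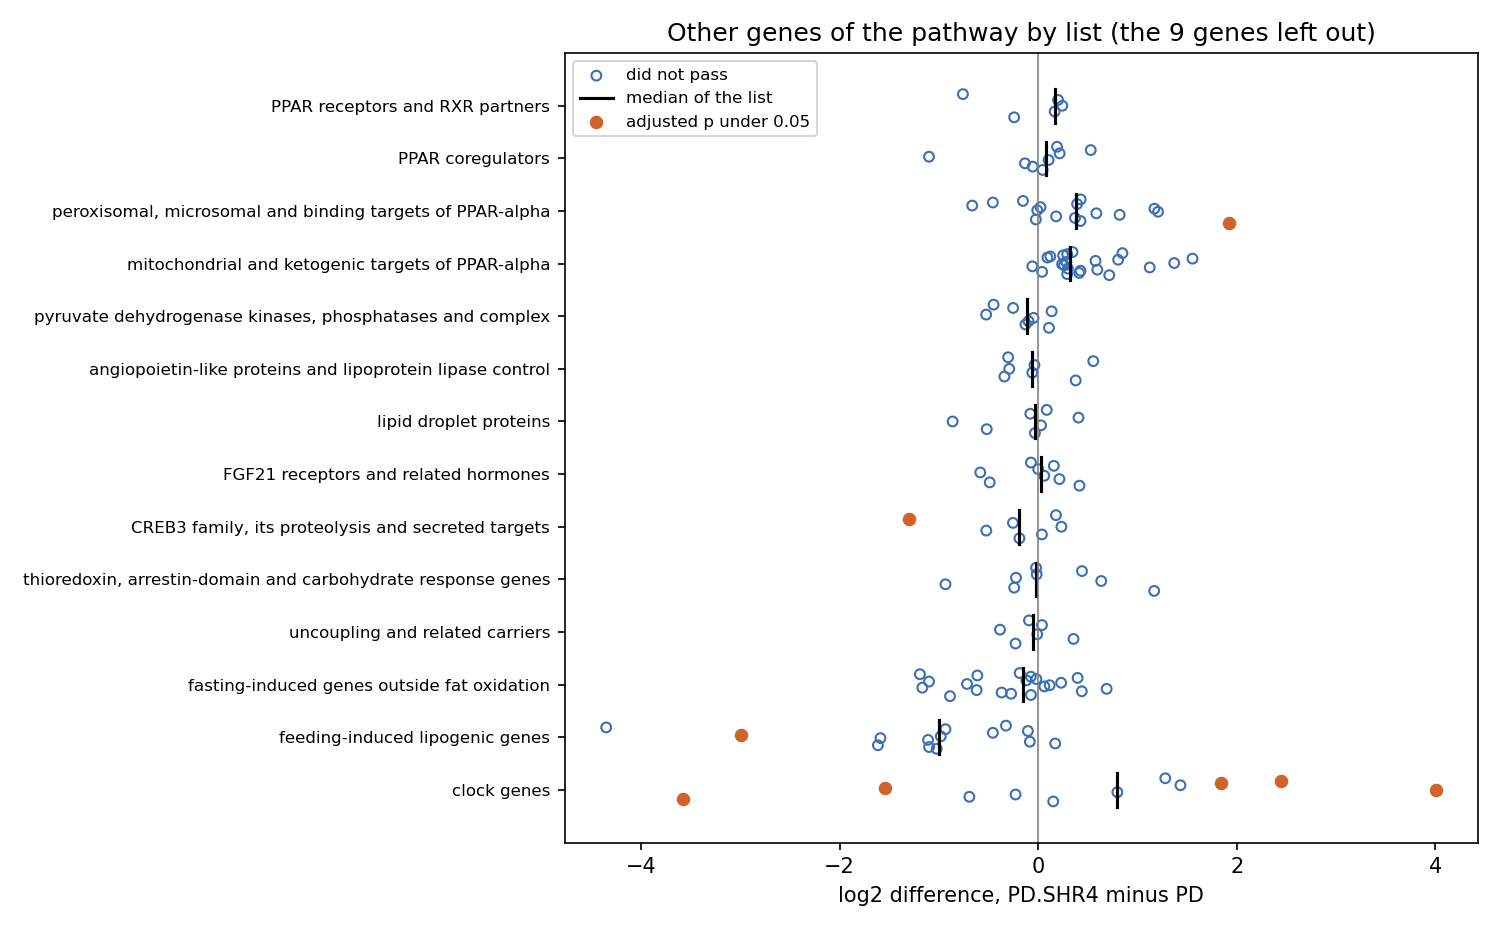
Log2 difference between strains, PD.SHR4 minus PD (horizontal axis), of each measured gene in 14 lists, with the 9 genes left out, orange where the adjusted p was under 0.05 and open blue otherwise, and a black bar at the median of each list. The mitochondrial targets of PPAR-alpha lie above 0 but for 1 gene, and the lists around Pdk4, Angptl4, Plin2 and Fgf21 have medians from -0.11 to 0.03.

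The closest relatives of the lower genes held no called change. Of 8 measured kinases, phosphatases and subunits around pyruvate dehydrogenase besides Pdk4, none passed, 0 had an unadjusted p under 0.05 (limma) and 6 had values below 0, with a median of -0.11. Pdk1, another kinase of the complex, measured -0.52 ± 0.26 (SE), and the phosphatase genes Pdp1 and Pdp2 measured -0.25 ± 0.18 and -0.45 ± 0.60. Without PD array 2 Pdp2 measured 0.16. Of 7 genes of lipoprotein lipase control besides Angptl4, none passed and 2 had an unadjusted p under 0.05, with a median of -0.06. Lpl itself measured 0.56 ± 0.19, the hepatic lipase gene Lipc -0.29 ± 0.20 and Apoa5, whose product aids lipoprotein lipase, -0.34 ± 0.11. Of 7 lipid droplet genes besides Plin2, none passed and 3 had an unadjusted p under 0.05, with a median of -0.03. G0s2, an inhibitor of the lipase ATGL, measured -0.86 ± 0.23, the seipin gene Bscl2 -0.52 ± 0.14 and Hsd17b11 0.41 ± 0.12. A p that misses the threshold does not show that these genes did not differ.

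The lists around Fgf21, Creb3l3, Txnip and Ucp2 held 1 called gene. Of 8 receptors and related hormones of Fgf21 none passed and 1 had an unadjusted p under 0.05 (limma), with a median of 0.03. Fgfr2 measured -0.58 ± 0.22 (SE), Fgf19 -0.49 ± 0.34 and Fgf1 0.42 ± 0.28. Fgf19 was dim, at 2.96, 2.84 and 3.57 in PD and 3.11 and 2.17 in PD.SHR4. The lower quartiles of the arrays were 2.84 to 2.93, and no detection call tells such levels from background. In the list of Creb3l3 relatives and targets, Hamp, the gene of the iron hormone hepcidin, fell and 6 of 7 did not pass, with a median of -0.19. Hamp is a known target of Creb3l3 in mice and was lower where Creb3l3 was higher. It measured 11.80, 11.64 and 11.73 in PD and 10.62 and 10.23 in PD.SHR4, so the strains differed by -1.30 ± 0.16 log2 units (SE; adjusted p = 0.0392, limma). This call was lost when any 1 of the 3 PD arrays was left out. The log2 difference of Hamp ran from -1.49 to -1.10 over 12 alternatives. Creb3l1 measured -0.52 ± 0.11, Creb3l4 -0.25 ± 0.11 and the plasma protein gene Apcs -0.19 ± 0.11.

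Around Txnip, none of 8 genes passed and 4 had an unadjusted p under 0.05 (limma), with a median of -0.02. Its relative Arrdc3, another alpha-arrestin gene, had the sign of Txnip at 1.17 ± 0.21 (SE). Txnrd1, a thioredoxin reductase gene, measured 0.44 ± 0.13 and the glucose transporter gene Slc2a2 0.64 ± 0.19. Around Ucp2 none of 6 carriers passed and 1 had an unadjusted p under 0.05, with a median of -0.05. Slc25a4, the adenine nucleotide carrier of heart and muscle, measured -0.38 ± 0.12, Slc25a27 0.36 ± 0.16 and Slc25a14 -0.23 ± 0.16.

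Genes that respond to fasting outside fat oxidation held no called change. Of 20 measured, 14 had values below 0, none passed and 6 had an unadjusted p under 0.05 (limma), with a median of -0.15. The glucose-6-phosphatase gene G6pc1 measured -1.17 ± 0.31 (SE), Lpin1, also in the coregulator list, -1.10 ± 0.25 and the stress gene Ddit4 -0.62 ± 0.20. Of 14 genes of lipid synthesis that feeding induces, 13 had values below 0, Insig1 fell and 13 did not pass, with a median of -1.0005. The PD arrays differed widely among themselves for these genes. Their mean level ran from 8.81 to 10.085 on the PD arrays and from 8.18 to 8.27 on the PD.SHR4 arrays. Insig1, which holds SREBP in the endoplasmic reticulum, differed by -2.99 ± 0.25 log2 units (SE; adjusted p = 0.0149, limma). Its call was lost without PD array 3, and its log2 difference ran from -3.24 to -2.75 over 12 alternatives. The desaturase genes Scd and Fads1 measured -4.35 ± 0.68 and -1.59 ± 0.41, and Gpam, of glycerolipid synthesis, -0.98 ± 0.24.

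Ppara is itself a clock-controlled gene in rodent liver, so clock genes are given beside it. Of 11 measured, 3 rose (Dbp, Per3 and Per2, at 4.01, 2.45 and 1.85 log2 units), 2 fell (Bmal1 and Nfil3, at -3.58 and -1.54) and 6 did not pass, with a median of 0.80. Tef, Cry2 and Clock measured 1.28, 0.80 and -0.69. Without PD array 2 or PD array 3, 1 clock gene rose and 1 fell. Without PD array 1, 3 rose and 1 fell. The part of the clock genes in the Ppara value was not tested.

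Pdk4 lies on chromosome 4, as does Cd36. In the GRCr8 gene order, 22 measured genes and 85 protein-coding genes lie between them, and whether Pdk4 lies within the transferred segment is not given in the sources used here. Among the 5 measured genes on each side of Pdk4, none passed the threshold, 0 had an unadjusted p under 0.05 (limma) and 7 of 10 had values above 0, with a median of 0.06 and a range from -0.89 to 0.26. On one side lie the paraoxonase genes Pon1, Pon3 and Pon2, at 0.07 ± 0.14, 0.24 ± 0.20 and 0.05 ± 0.13 (SE), with Asb4 at 0.06 ± 0.20 and Ppp1r9a at 0.12 ± 0.12. On the other lie Dync1i1 at 0.26 ± 0.15, Dlx5 at -0.11 ± 0.14, Tac1 at -0.01 ± 0.15 and C1galt1 at 0.07 ± 0.14. Asns, the asparagine synthetase gene, was the only one of the 10 whose arrays did not overlap, lower at -0.89 ± 0.39. Dlx5, Tac1 and Ppp1r9a were dimmer than the lower quartile on all arrays, and Dync1i1 on all PD arrays, and no detection calls were used here to tell such levels from background.

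**Figure D4:**
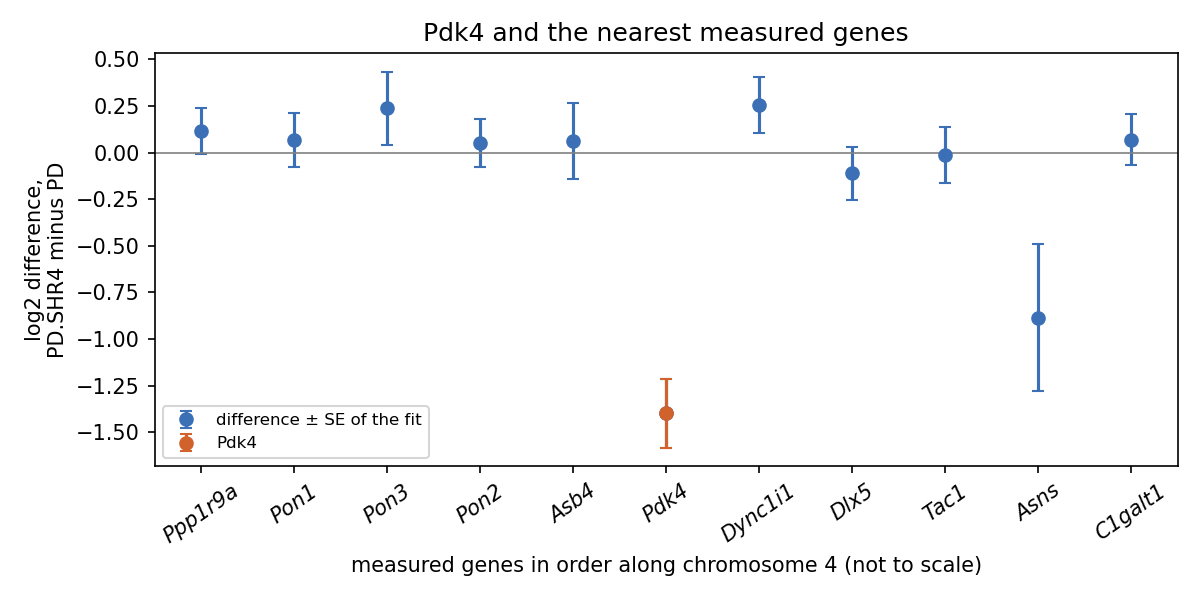
Log2 difference between strains, PD.SHR4 minus PD (vertical axis), for Pdk4 in orange and the 5 nearest measured genes on each side in blue, in gene order along chromosome 4 (horizontal axis, not to scale), with bars of 1 SE of the fit. Pdk4 lies at -1.40, Asns at -0.89 and the other 9 genes between -0.11 and 0.26.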

How the data were processed

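Total RNA of liver was measured on Affymetrix Rat Exon 1.0 ST arrays, a 1-colour oligonucleotide array. Per the labels, the authors deposited log2 expression values made with RMA in Expression Console at the core-gene level, and RMA and Partek are named in the submitters' processing notes. RMA models and removes background, normalises between arrays and combines probes into 1 value a gene. Over the probe sets used here the arrays did not share 1 distribution (medians 5.21 to 5.38), so further quantile normalisation and centring were among the alternatives. The build and software versions were not given in the sources used here. No detection calls were used. Precision is limited by the number of arrays and by the pooling. The SE, intervals and p-values rest on the spread between arrays, not on the spread between rats.

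Of 8797 probe sets, 7603 had 1 symbol in GEO's platform annotation, 409 several and 785 none. Gene IDs of 7584 matched RefSeq (GRCr8), used for symbols, gene order and promoter windows. The brightest probe set stood for each of 14 genes with several. PD.SHR4 was set against PD over 5 arrays by a two-sided moderated test (limma 3.58.1 under R 4.3.3, functions lmFit and eBayes), and p-values were adjusted by Benjamini-Hochberg over the whole table, with a threshold of 0.05. SE and 95% intervals are those of the moderated fit, which was tested on simulated data.

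The 9 genes, the 14 pathway lists and the 11 marker lists were chosen with earlier results of these data known. Named genes were the 9 genes, in each pathway list those past the threshold and up to 3 others by smallest p, the 3 nearest profiles each, Cd36 and 5 neighbours of Pdk4 on each side. The alternatives tried were each array left out in turn, a block for the replicate number, further quantile normalisation and median centring. Others were an intensity trend, no shrinkage, a filter on the dimmest 25% of probe sets, array weights and a 1.5-fold limit. The mean of a gene's probe sets was not run.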

Additional observations from a re-analysis of the deposited data

How the results depend on the processing

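Of the 9 genes, 7 kept their sign in all 12 alternative fits, and Ppargc1a and Fgf21 kept it in 9 each. Log2 differences over these fits were 1.73 to 2.39 for Ppara, -1.50 to -1.24 for Pdk4, -2.12 to -1.67 for Angptl4, -0.79 to -0.59 for Plin2 and 0.48 to 0.64 for Creb3l3. With array weights Ppargc1a was 0.21 and Fgf21 -0.87. Txnip was 0.22 to 0.39 when single arrays were left out. Ucp2 was -0.17 after further quantile normalisation and -0.16 after median centring.

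Changed probe sets numbered 18 to 55 when single PD arrays were left out, against 82 in the main fit. They numbered 151 with the intensity trend, 2 without shrinkage, 149 without the dimmest 25% and 819 with array weights. Of the 9 genes, 0 to 1 passed when single PD arrays were left out and 0 without shrinkage. With array weights 5 passed, and 3 with further quantile normalisation, centring, the trend or the filter. Ppara passed in 6 of 12 fits. Of the 144 other list genes 8 passed, 3 to 7 when single PD arrays were left out, 0 without shrinkage and 42 with array weights. The mean of probe sets was not run, since 0 of these genes had several. With the 1.5-fold limit the counts were again 82 and 2. Leaving out a PD.SHR4 array leaves 1, which is then taken to vary as the PD arrays do. A call lost in these fits says nothing particular about its gene.

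PD and PD.SHR4 share the replicate numbers 1 and 2, and the deviations of same-numbered arrays from their strain means correlated at 0.0498 and 0.0819. PD array 3 and PD.SHR4 array 1, which share no number, gave 0.0474. The deviations of 2 PD.SHR4 arrays mirror each other, so these values are not separate checks and cannot settle whether the numbers mark pairs. The numbers were not taken as pairs in the main fit. With the replicate number as a block, in which PD array 3 has no partner and adds nothing to the differences, 163 probe sets, 3 of the 9 genes and 19 list genes passed.

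Among the other named genes, 5 changed sign. When single arrays were left out, Pon1 ran from -0.012 (without PD array 1) to 0.16, Pon2 from -0.0017 (without PD.SHR4 array 2) to 0.12, and Pdp2 from -0.92 to 0.16 (without PD array 2). Asb4 ran from -0.087 to 0.23, below 0 without PD array 2, PD array 3 or PD.SHR4 array 1, and was -0.019 with the block. Tac1 ran from -0.13 to 0.11, above 0 without PD array 3 or PD.SHR4 array 2, and was 0.076 with the block and 0.040 after centring. The cause was not tested.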

Other observations

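Markers of other cells of the liver were measured beside the fasting-linked genes. Of 9 lymphocyte markers, 7 had values below 0 and 6 were lower on both PD.SHR4 arrays than on any PD array (17.1% of all probe sets were), with a median log2 difference of -0.44. The median was -0.28 over 8 stellate cell and fibroblast markers, -0.57 over 3 neutrophil markers, -0.44 over 2 erythroid markers and 0.14 over 2 cholangiocyte markers. It was 0.05 over 8 hepatocyte markers, 0.02 over 6 adipocyte markers, 0.03 over 5 muscle markers and 0.11 over 7 pancreas markers. None of these markers passed the adjusted threshold (limma). An unadjusted p under 0.05 was found for 5 lymphocyte, 2 stellate cell, 2 neutrophil, 1 erythroid, 1 cholangiocyte, 0 hepatocyte, 1 adipocyte, 0 muscle and 2 pancreas markers, and the 8 endothelial markers were not analysed here.

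Fgf21 was not alone in varying among the PD arrays, although the labels describe a pool of cDNA for each strain. Pdp2 spanned 2.15 log2 units over the 3 PD arrays (number 40 of 8797 probe sets), Scd 2.26 (number 32) and Dbp 1.85 (number 67). Wider ranges in the lists were those of Elovl6 at 3.44 (number 4), Me1 at 2.40 (number 25) and Nr0b2 at 2.36 (number 28). Elovl6, Me1, Nr0b2, Scd and Pdp2 were highest on PD array 2, where Fgf21 was lowest, and Dbp was highest on PD array 1. The cause was not tested. The median range of all probe sets was 0.35, and the range at the 90th percentile was 0.83.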
